A study of Mus musculus with 8 samples.

Results

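The response of mouse bone marrow-derived macrophages (BMDMs) to LPS + MSU was compared, gene by gene, between *Ncoa6*-KO and *Ncoa6*-sufficient cells. The value described, called the response difference, is the log2 change from medium alone to LPS + MSU in *Ncoa6*-KO BMDMs minus the same change in *Ncoa6*-sufficient BMDMs. A positive value means a stronger induction or a weaker repression in *Ncoa6*-KO BMDMs, and a negative value a weaker induction or a stronger repression. It was computed for the 17625 of 50615 annotated genes whose rounded counts summed to at least 10 over all 8 libraries. Both genotypes were C57BL/6 mice with floxed alleles of *Ncoa6*. The *Ncoa6*-KO mice were Ncoa6 fl/fl LysM CRE, in which the myeloid lysozyme locus drives Cre recombinase, and the *Ncoa6*-sufficient mice were Ncoa6 fl/fl without Cre, so that the deletion and the presence of the Cre allele cannot be told apart. Bone marrow cells spent 6 days in 20 ng/ml M-CSF. The BMDMs then received either medium alone or, for LPS + MSU, 100 ng/ml LPS over 4 h followed by monosodium urate (MSU) crystals, 200 µg/ml over 2 h. The 4 groups had n = 2 libraries from different mice, whose ages and sexes the labels do not give, and p-values therefore measure the spread between 2 libraries per group.

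NCOA6 is a coactivator of nuclear receptors and other transcription factors and a subunit of the complexes in which the MLL3 and MLL4 methyltransferases mark enhancers. LPS acts through TLR4, which activates NF-κB and induces cytokine and chemokine genes within hours, and it also switches on interferon-β, which signals back through JAK and STAT proteins to induce interferon-stimulated genes. MSU crystals then trigger the NLRP3 inflammasome, in which the adaptor ASC and caspase-1 mature IL-1β. Macrophages silence many genes during this response, among them regulators of cell division, iron export and differentiation.

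Total expected counts ran from 25281955 to 33673552 per library. Replicate libraries correlated at 0.981 to 0.988 over all 17625 genes tested, on log2 normalized counts. The TMM scaling factors in medium were 1.231 and 1.247 for *Ncoa6*-sufficient and 1.253 and 1.286 for *Ncoa6*-KO libraries. After LPS + MSU they were 0.766 and 0.790 against 0.806 and 0.829. They were thus slightly higher in *Ncoa6*-KO libraries in both conditions, and the median response difference over all genes was 0.06. The targeted gene, *Ncoa6*, had 1515 and 1405 normalized counts in medium alone and 1297 and 1173 with LPS + MSU in *Ncoa6*-sufficient libraries, against 784 and 622 and 563 and 526 in *Ncoa6*-KO libraries. All 4 *Ncoa6*-KO libraries lay below all 4 *Ncoa6*-sufficient libraries. Its response difference was -0.13 (standard error 0.17, unadjusted p = 0.464, edgeR). The 12 macrophage markers examined, such as *Adgre1* and *Csf1r*, were all above the count limit, and 1 of them, *Cd14*, had an unadjusted p under 0.05 for the response difference, with a median of 0.08 over the list. With medium alone the fitted genotype difference was below 0 for all 12, and 3 passed an adjusted p under 0.05 (*Lyz2*, the locus that drives Cre, *Cd14* and *Aif1*). Of all genes, 1.3% were called lower in that condition. With LPS + MSU 10 of 12 were lower, and 4 passed, *Lyz2* and *Aif1* among them, where 1.63% of all genes were called lower. The list's median genotype difference (log2) was -0.27 with medium alone and -0.17 with LPS + MSU. Summed over these markers, normalized counts were 437560 to 509927 in *Ncoa6*-sufficient and 297179 to 344025 in *Ncoa6*-KO libraries with medium alone, and 544627 to 608902 and 420271 to 446181 with LPS + MSU. These sums include *Lyz2* and follow the most abundant markers, so they do not measure the typical marker. The part of this shift in the results below was not tested. Of 82 markers of 8 other cell types, 49 were above the count limit, and none of those 49 had an unadjusted p under 0.05 for the response difference. Fewer cells of a type and less RNA per cell cannot be told apart in such bulk libraries.

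At an edgeR adjusted p under 0.05, 9737 genes responded in *Ncoa6*-sufficient BMDMs (55.2% of those tested) and 9359 in *Ncoa6*-KO BMDMs (53.1%). Of these, 8376 were called in both genotypes and 8373 of them moved in the same direction. Across the 11219 genes averaging 50 normalized counts or more, the responses of the genotypes correlated at 0.981, a description over genes, which are not replicates. No gene reached an adjusted p under 0.05 for the response difference in edgeR (0 of 17625, 0%, smallest adjusted p = 0.163). This count depended on whether the replicate number was used as a block, with 86 genes when the block ran across all groups and 444 when it ran within each genotype. Whether libraries of the same number came from the same mouse is not given in the labels. At an unadjusted p under 0.05, 724 genes had a positive difference (4.11%) and 321 a negative one (1.82%). DESeq2 called 43 genes at an adjusted p under 0.05, 32 positive and 11 negative, and limma-voom called 0. All 43 had an unadjusted p under 0.05 in edgeR. The genes named below were thus chosen by an unadjusted p, and the DESeq2 adjusted p is given for those that are described with it under 0.05.

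The count and its direction depended on single libraries and on scaling. Without the first *Ncoa6*-sufficient library with LPS + MSU the 724 positive genes became 382, and without the second *Ncoa6*-KO library with LPS + MSU they became 422. The 321 negative genes became 524 without the second *Ncoa6*-sufficient library with LPS + MSU and 547 without the first *Ncoa6*-KO library with LPS + MSU. When the first *Ncoa6*-KO library with medium alone was dropped, 16 genes passed the adjusted limit, and 1 did without the second *Ncoa6*-sufficient library with LPS + MSU. The share of positive genes among those with an unadjusted p under 0.05 was 69.3%, but 52.9% with DESeq2 size factors in edgeR, 54.1% with DESeq2 and 59.2% after an offset for GC content and transcript length. With DESeq2 size factors the median response difference over all genes was 0.00047 in place of 0.06, and the medians of the interferon-stimulated genes and interferon-inducible GTPases described below were 0.64 and 0.67.

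**Figure D1:**
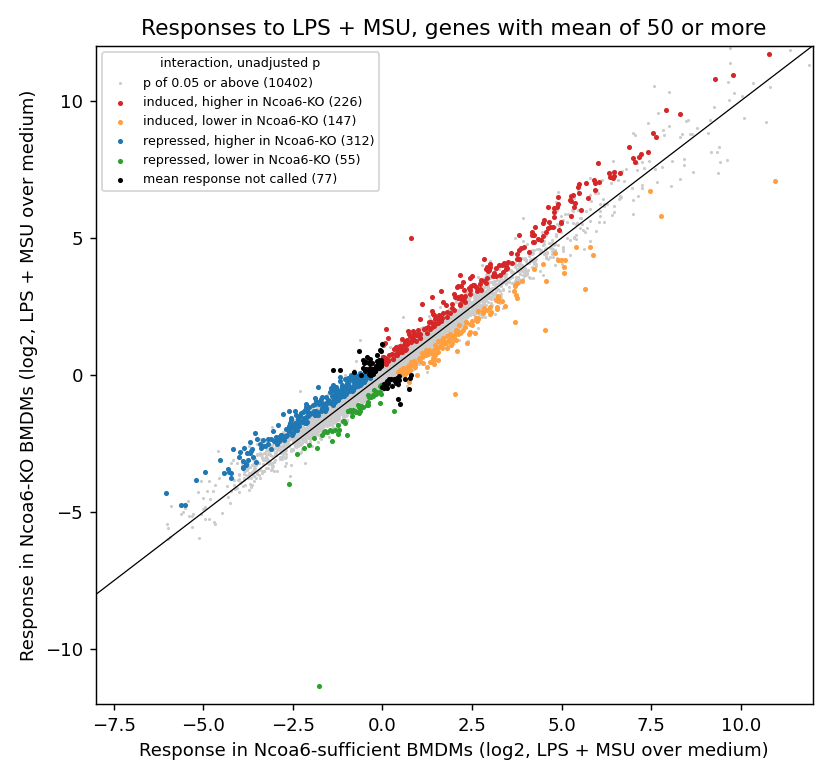
Response to LPS + MSU (log2, LPS + MSU over medium alone) in *Ncoa6*-sufficient BMDMs on the x axis and in *Ncoa6*-KO BMDMs on the y axis, 1 point per gene for the 11219 genes averaging 50 normalized counts or more, with the line of equal responses. Colored and black points have an unadjusted p under 0.05 for the response difference, and they lie close to the line on both sides, with 226 induced genes above it and 147 below, and 312 repressed genes above it and 55 below.

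Genes were sorted by the mean of both responses, a contrast that is statistically separate from their difference when the groups are of equal size. At an adjusted p under 0.05, 5203 genes were induced (29.5%) and 6231 repressed (35.4%). Among the induced genes, 248 (4.77%) were induced more strongly in *Ncoa6*-KO BMDMs and 165 (3.17%) less strongly, by an unadjusted p under 0.05. Among the repressed genes, 369 (5.92%) were repressed less strongly in *Ncoa6*-KO BMDMs and 77 (1.24%) more strongly. The remaining 186 genes, 107 positive and 79 negative, had no called mean response. These groups were sorted by the same p that is described here, so their medians are descriptions. The sorting depends on scaling, since with library totals in place of TMM 2498 genes rose and 9653 fell in *Ncoa6*-sufficient BMDMs, against 4362 and 5375 with TMM, and 2540 and 9313 against 4446 and 4913 in *Ncoa6*-KO BMDMs.

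The condition in which the genotypes stood apart was not the same in these groups. The 248 genes with a stronger induction had a median genotype difference (*Ncoa6*-KO over *Ncoa6*-sufficient, log2) of -0.65 in medium and 0.02 after LPS + MSU, and for 169 of them the gap was wider with medium alone. For the 165 genes with a weaker induction the medians were 0.13 in medium and -0.47 after stimulation. The 369 genes with a weaker repression had medians of -0.02 and 0.59, with the gap wider with medium alone in 47. The 77 genes with a stronger repression had medians of 0.11 and -0.71. Stronger induction was thus mostly a lower starting level, and the other patterns were mostly different levels after LPS + MSU.

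The size of the response difference also varied with the size of the response, as the plot by mean response shows. Among the 191 genes induced by more than 5 (log2, mean of both genotypes) the median response difference was 0.53, and leaving out single libraries gave 0.33 to 0.71. Among the 878 genes induced by 1 to 2 the median was -0.03 (-0.12 to -0.0042). In the 192 genes repressed by at least 3 it was 0.26 (0.11 to 0.31), and in the 4055 genes repressed by up to 1 it was 0.07 (0.01 to 0.08). The most strongly induced genes had a median genotype difference of -0.82 in medium and -0.34 after LPS + MSU.

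**Figure D2:**
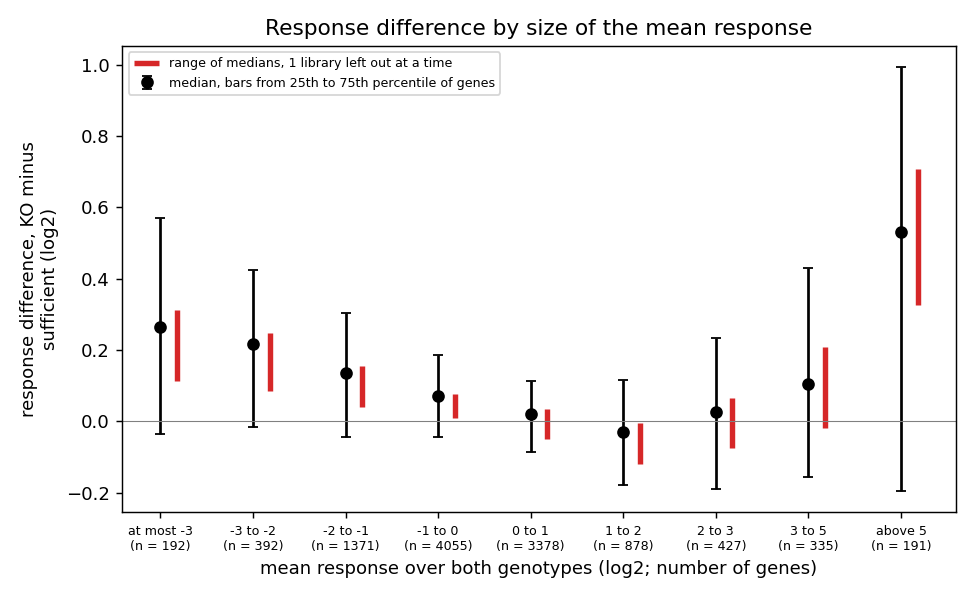
Median response difference (log2, *Ncoa6*-KO minus *Ncoa6*-sufficient) of genes averaging 50 normalized counts or more, grouped by the mean of the responses of both genotypes on the x axis. Bars run from the 25th to the 75th percentile of genes, and red lines give the range of the median as each of the 8 libraries was left out. The median was 0.53 in the most strongly induced genes and 0.26 in the most strongly repressed ones, and it was lowest, -0.03, in the genes induced by 1 to 2.

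Interferon-stimulated genes were induced more strongly in *Ncoa6*-KO BMDMs as a group. Of the 44 tested, 29 had a positive response difference with an unadjusted p under 0.05 and 0 a negative one, against 4.11% and 1.82% of all genes, and all 44 differences were above 0. The list's median was 0.69 (25th to 75th percentile 0.49 to 1.04), beside 0.06 over all genes tested. The 44 genes all had lower values in *Ncoa6*-KO than in *Ncoa6*-sufficient BMDMs with medium alone, with a median of -0.94, and 29 of them passed an adjusted p under 0.05 for that difference (1.3% of all genes were called lower). With LPS + MSU, 43 of 44 were still below 0 but the median was -0.26 and 0 passed (1.63% of all genes were called lower). The responses of the 2 genotypes did not overlap, whichever libraries were set against each other, for 31 of the 44, all higher in *Ncoa6*-KO BMDMs, beside 12.5% of all genes higher and 7.3% lower. Summed over the list, normalized counts with medium alone were 92332 to 109864 in *Ncoa6*-sufficient and 43449 to 66387 in *Ncoa6*-KO libraries.

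The members of this list were measured in the same 8 libraries and are not replicates, so their number does not measure the support. Between replicate libraries, the list's median deviation from the group means had a standard deviation of 0.26 (log2). The size of the list's response difference moved with the library that was left out. Without the second *Ncoa6*-KO library with medium alone the median response difference of the interferon-stimulated genes was 0.40 with 22 genes at an unadjusted p under 0.05, and without the first it was 1.07 with 42. The count was also low without the first *Ncoa6*-sufficient library with medium alone (17), without the second *Ncoa6*-sufficient library with LPS + MSU (18) and without the first *Ncoa6*-KO library with LPS + MSU (19).

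*Cxcl10*, a chemokine for activated T cells that interferon and NF-κB both induce, was listed with the CXC chemokines and had a smaller p than any member of the interferon-stimulated gene list. It had 249.9 and 330.3 normalized counts with medium alone in *Ncoa6*-sufficient libraries and 93.2 and 88.7 in *Ncoa6*-KO libraries. With LPS + MSU it had 191127 and 169104 and 166333 and 158490, respectively. The *Ncoa6*-KO libraries were lower in both conditions without overlap, but by a wider margin with medium alone, so that the induction was 1782-fold in *Ncoa6*-KO and 622-fold in *Ncoa6*-sufficient BMDMs. The response difference was 1.52 (standard error 0.23, unadjusted p = 3.75e-05 in edgeR, adjusted p = 2.92e-08 in DESeq2). *Ifi205*, which encodes a DNA-binding protein of the interferon-inducible p200 family, had 171 and 105 against 28.5 and 32.5 normalized counts with medium alone. With LPS + MSU its libraries held 37288 and 29132 against 26015 and 23534. Its response difference of 1.77 (standard error 0.32, unadjusted p = 0.000215, DESeq2 adjusted p = 1.84e-05) was larger than that of *Cxcl10*, again with no overlap between genotypes in either condition.

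The antiviral effectors *Oasl1* and *Mx1* showed the same order of libraries with medium alone. *Oasl1*, a member of the oligoadenylate synthetase family that restrains translation of *Irf7*, had 192 and 142 against 70.2 and 42.1 normalized counts with medium alone, and 20632 and 18665 against 16570 and 20084 with LPS + MSU, where the genotypes overlapped. *Mx1*, a dynamin-like GTPase that blocks influenza viruses, had 751 and 809 against 334 and 205 in medium alone and 128685 and 161288 against 120621 and 123581 with LPS + MSU. The response differences were 1.45 for *Oasl1* (standard error 0.29, unadjusted p = 0.000403) and 1.28 for *Mx1* (standard error 0.28, unadjusted p = 0.000802), with DESeq2 adjusted p-values of 7.60e-05 and 0.000574. Among other members the response difference was 1.35 for the ubiquitin-like modifier *Isg15*, 1.25 for *Ifit3*, 1.04 for *Ifit1* and 1.48 for the nucleic acid sensor *Zbp1*. It was smallest for *Slfn8* at 0.25 and for *Slfn5* at 0.25, neither of which passed the unadjusted limit.

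The GTPases that interferons induce against intracellular microbes followed. Of 19 guanylate-binding proteins and immunity-related GTPases tested, 11 (57.9%, against 4.11% of all genes) had a positive response difference with an unadjusted p under 0.05 and 0 a negative one, and the median was 0.72. The median genotype difference was -1.05 in medium alone and -0.32 with LPS + MSU. *Gbp5*, which promotes NLRP3 inflammasome assembly, had 197 and 194 normalized counts in *Ncoa6*-sufficient libraries in medium, against 90.4 and 48.3 in *Ncoa6*-KO libraries. After LPS + MSU the values were 66911 and 56424 and 55150 and 49560. The libraries of each genotype did not overlap in either condition, and the response difference was 1.23 (standard error 0.29, unadjusted p = 0.00146, DESeq2 adjusted p = 0.00135). *Tgtp2*, a GTPase of the same defense system with the near-identical copy *Tgtp1*, so that its counts are uncertain, had a response difference of 1.22 (unadjusted p = 0.000737, DESeq2 adjusted p = 0.00148). *Gbp2b*, *Gbp11* and *Gbp10* were the 3 members below 0, at -3.02, -1.67 and -0.31, and none of them passed the unadjusted limit. The responses of the genotypes did not overlap for 9 of the 19 with *Ncoa6*-KO BMDMs higher and for 3 with them lower. Over all genes these shares were 12.5% and 7.3%. As with the interferon-stimulated genes, the count of 11 fell to 6 or fewer without the first *Ncoa6*-sufficient library with medium alone (5), the second *Ncoa6*-sufficient library with LPS + MSU (5), the second *Ncoa6*-KO library with medium alone (6) and the first *Ncoa6*-KO library with LPS + MSU (6).

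**Figure D3:**
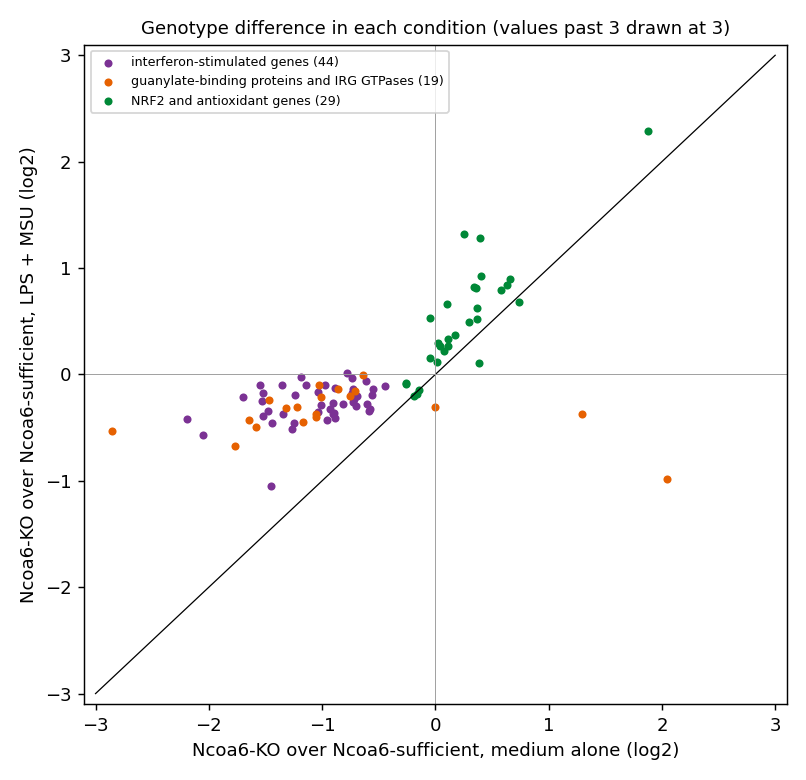
Genotype difference (log2, *Ncoa6*-KO over *Ncoa6*-sufficient) of single genes with medium alone on the x axis and with LPS + MSU on the y axis, with the line of equal differences. Interferon-stimulated genes and interferon-inducible GTPases lie mostly left of 0 and above the line, with medians of -0.94 and -1.05 on the x axis and -0.26 and -0.32 on the y axis, while NRF2 and antioxidant genes lie mostly above the line and right of 0, with medians of 0.18 and 0.49.

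Interferon-stimulated genes carry the interferon-stimulated response element (ISRE), which the transcription factor complex that interferons activate binds. The letters GAAANNGAA, searched on both strands in the 250 bases before the start of each gene in RefSeq (GRCm38.p6), were found in 8.18% of all 27025 genes of the promoter table and in 7.77% of the 11590 tested genes matched to it by symbol. They were found in 16 of 31 matched interferon-stimulated genes (51.6%) and 10 of 11 matched guanylate-binding proteins and immunity-related GTPases (90.9%). Of the 170 matched genes with a stronger induction in *Ncoa6*-KO BMDMs, which include members of both lists, 34 held them (20.0%), as did 12 of 123 with a weaker induction (9.76%), 18 of 281 with a weaker repression (6.41%) and 382 of all 3547 matched induced genes (10.8%). A match is a run of letters and not a shown binding site. The 250 bases before the start of *Cxcl10* (chr5:92348890-92349139, reverse strand), *Ifi205* (chr1:174031756-174032005, reverse strand) and *Gbp5* (chr3:142496684-142496933, forward strand), which are among the genes whose counts are given above, are shown with the matches in capitals. Those of *Irf7* (chr7:141266425-141266674, reverse strand), an interferon-stimulated gene with a similar response difference, are also shown, and the letters are not present in this window. *Oasl1*, whose counts are also given above and whose bases are not shown, did not hold the letters in its window either.
Cxcl10: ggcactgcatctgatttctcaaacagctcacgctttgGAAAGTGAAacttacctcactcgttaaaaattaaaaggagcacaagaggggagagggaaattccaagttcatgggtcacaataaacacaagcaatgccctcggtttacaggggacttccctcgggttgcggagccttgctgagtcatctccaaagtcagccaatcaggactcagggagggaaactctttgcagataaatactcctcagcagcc
Ifi205: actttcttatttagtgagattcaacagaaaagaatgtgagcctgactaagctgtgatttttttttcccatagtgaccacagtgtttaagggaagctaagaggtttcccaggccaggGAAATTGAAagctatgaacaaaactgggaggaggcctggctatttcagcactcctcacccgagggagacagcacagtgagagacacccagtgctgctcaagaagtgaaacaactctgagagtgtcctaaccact
Gbp5: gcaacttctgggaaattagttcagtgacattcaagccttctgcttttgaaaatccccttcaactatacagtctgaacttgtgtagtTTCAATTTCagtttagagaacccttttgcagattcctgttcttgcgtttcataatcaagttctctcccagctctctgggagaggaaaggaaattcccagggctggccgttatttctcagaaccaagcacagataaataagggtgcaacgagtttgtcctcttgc
Irf7: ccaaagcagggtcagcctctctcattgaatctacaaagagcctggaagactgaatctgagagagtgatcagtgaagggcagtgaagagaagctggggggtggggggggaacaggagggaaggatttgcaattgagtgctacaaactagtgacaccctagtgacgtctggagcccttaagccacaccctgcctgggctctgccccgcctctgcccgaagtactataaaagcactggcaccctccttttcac

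Among the signalling components of the interferon pathway, the positive differences included those of IRFs and 1 receptor chain. Of 27 interferon receptors, JAKs, STATs, IRFs and SOCS proteins, 6 (22.2%, against 4.11% of all genes) had a positive and 1 a negative difference with an unadjusted p under 0.05, and the median was 0.06. Leaving out single libraries gave 4 to 7 positive genes. *Irf7*, the factor that amplifies interferon production, had 2857 and 2281 against 1101 and 679.7 normalized counts in medium alone and 52109 and 46624 against 39495 and 35853 with LPS + MSU, lower in *Ncoa6*-KO libraries in both conditions without overlap. Its response difference was 1.14 (standard error 0.28, unadjusted p = 0.00181, DESeq2 adjusted p = 0.0103). The difference was 0.75 for *Irf1* (unadjusted p = 0.00288) and 0.59 for *Stat2*. *Ifngr1*, the ligand-binding chain of the interferon-γ receptor, was repressed in both genotypes, by 2.44-fold in *Ncoa6*-sufficient and 1.54-fold in *Ncoa6*-KO BMDMs, a difference of 0.67 (unadjusted p = 0.0022). The single negative member was *Irf8*, a factor that directs myeloid development, at -0.92 (unadjusted p = 0.0289). *Ifnb1*, the interferon gene that LPS induces, had a response difference of -1.18, *Ifnar1* of -0.21 and *Ifnar2* of -0.05, with unadjusted p-values of 0.344, 0.142 and 0.779.

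**Figure D4:**
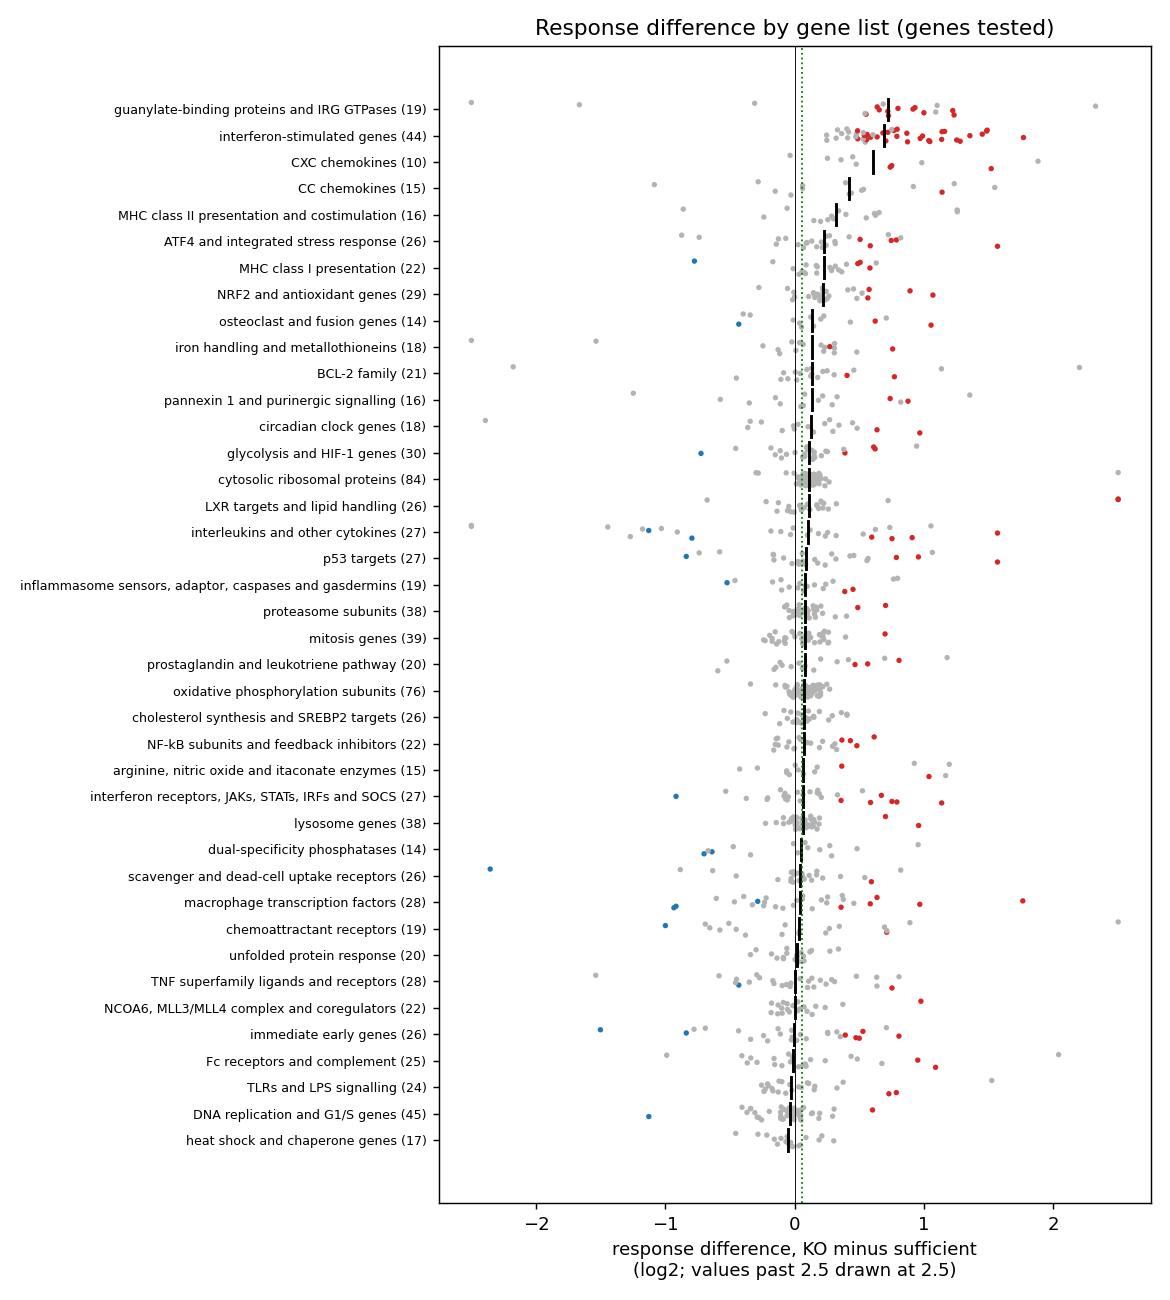
Response difference (log2, *Ncoa6*-KO minus *Ncoa6*-sufficient) of the tested genes of 40 lists, 1 point per gene and 1 row per list with the number of genes tested, ordered by the median (black tick). Red and blue points have an unadjusted p under 0.05 with a positive or negative difference, gray points do not, and the dotted line is the median of all genes tested, 0.06. Interferon-inducible GTPases and interferon-stimulated genes have the highest medians, 0.72 and 0.69, and most lists lie near the dotted line.

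The counts for the further lists are given with the share of members that were positive, to be read against 4.11% of all genes, and with the range of the positive count as each library was left out. Of 27 interleukins and other cytokines tested, 4 (14.8%, 2 to 6) had a positive and 2 a negative difference with an unadjusted p under 0.05. Their median of 0.10 ran from -0.17 without the first *Ncoa6*-KO library with LPS + MSU to 0.30 without the first *Ncoa6*-KO library with medium alone, so its sign was not stable. Of 10 CXC chemokines 3 were positive (30%) and 0 negative, with a median of 0.61, but only 1 was positive without the second *Ncoa6*-KO library with medium alone and 2 without any one of the others. Of 15 CC chemokines 1 was positive (6.67%) and 0 negative, with 5 positive without the second *Ncoa6*-sufficient library with medium alone, and 0 without the first of that group, the second *Ncoa6*-sufficient library or the first *Ncoa6*-KO library with LPS + MSU. The CC chemokine median of 0.42 ran from 0.11 without the first *Ncoa6*-sufficient to 0.68 without the second *Ncoa6*-KO library with medium alone. *Tnf*, the NF-κB-dependent cytokine of the early response, had 1068 and 946 normalized counts with medium alone in *Ncoa6*-sufficient libraries and 598 and 629 in *Ncoa6*-KO libraries, but 80733 and 93808 and 87847 and 91028 with LPS + MSU. Its libraries were thus separated by genotype with medium alone and overlapped with LPS + MSU, with a response difference of 0.75 (standard error 0.18, unadjusted p = 0.00144, DESeq2 adjusted p = 0.0104). *Cxcl2*, a neutrophil attractant, had a difference of 0.74 (unadjusted p = 0.0283), *Ccl5* of 1.14 (unadjusted p = 0.0427) and *Csf1*, which encodes M-CSF, of 0.59 (unadjusted p = 0.00712). The negative members were *Inhba*, which encodes the activin A subunit, at -1.13 (unadjusted p = 0.0273), and the IL-1 receptor antagonist *Il1rn* at -0.80 (unadjusted p = 0.041). Neither *Il6* (-1.27, unadjusted p = 0.208) nor *Il12b* (0.10, unadjusted p = 0.91) passed the limit.

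*Cx3cl1*, the membrane-bound chemokine fractalkine, differed from the interferon-stimulated genes in its final level. It had 43.5 and 42.2 normalized counts in medium alone and 1722 and 2034 with LPS + MSU in *Ncoa6*-sufficient libraries, against 20.9 and 29.9 and then 2880 and 2919 in *Ncoa6*-KO libraries. The *Ncoa6*-KO libraries were the lower ones with medium alone and the higher ones with LPS + MSU, without overlap in either condition. The response difference was 1.41 (standard error 0.24, unadjusted p = 0.000118, DESeq2 adjusted p = 0.00377). *Acod1*, the enzyme that makes itaconate, and *Marcksl1*, an actin-regulating protein, kept the common order, with differences of 1.04 (unadjusted p = 0.000138, DESeq2 adjusted p = 7.91e-07) and 1.03 (unadjusted p = 0.000104, DESeq2 adjusted p = 1.84e-05). For *Acod1* the normalized counts were 1129 and 1201 against 454 and 510.2 in medium alone and 239982 and 221288 against 192980 and 198673 with LPS + MSU. Complement component *C3* had 3125 and 2897 against 1757 and 1323 in medium alone and 111172 and 121131 against 123206 and 129611 with LPS + MSU, so the libraries separated by genotype in opposite orders, with a difference of 1.09 (unadjusted p = 0.000274, DESeq2 adjusted p = 5.57e-05).

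Genes of TLR and NF-κB signalling that passed were all positive. Of 24 TLRs and LPS signalling genes, 2 (8.33%, 2 to 3) were positive and 0 negative at an unadjusted p under 0.05, with a median of -0.03. The 2 were *Tlr2*, the receptor for bacterial lipoproteins, at 0.79 (unadjusted p = 0.00307), and the LPS co-receptor *Cd14* at 0.73 (unadjusted p = 0.00561). Of 22 NF-κB subunits and feedback inhibitors, 4 (18.2%, 2 to 6) were positive and 0 negative with a median of 0.07, among them the inhibitors *Nfkbie* at 0.43 and *Nfkbid* at 0.61 and the subunit *Relb* at 0.36. Immediate early genes held both directions, with 5 positive (19.2%, 3 to 5) and 2 negative of 26. *Jun* (0.50) and *Egr2* (0.81) were among the positive ones, and *Btg2*, an antiproliferative factor, was negative at -0.84 (unadjusted p = 0.0043).

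The inflammasome genes held both directions. Of 19 inflammasome sensors, adaptors, caspases and gasdermins tested, 2 (10.5%, 0 to 4) were positive and 1 negative at an unadjusted p under 0.05, with a median of 0.08. *Nlrp3*, the sensor of the MSU response, had 1268 and 1155 normalized counts in medium alone and 20048 and 21346 with LPS + MSU in *Ncoa6*-sufficient libraries. In *Ncoa6*-KO libraries it had 958 and 901 and 18998 and 22526. The genotypes were separated with medium alone and overlapped with LPS + MSU, and the response difference was 0.39 (standard error 0.16, unadjusted p = 0.0367). *Ninj1*, which ruptures the plasma membrane in lytic cell death, had a difference of 0.45 (unadjusted p = 0.0196).

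*Pycard*, which encodes the adaptor ASC, had 1548 and 1287 normalized counts in medium alone and 1719 and 1195 with LPS + MSU in *Ncoa6*-sufficient libraries, against 1212 and 1409 and 942 and 930.4 in *Ncoa6*-KO libraries. The genotypes overlapped with medium alone and the *Ncoa6*-KO libraries were lower with LPS + MSU, a difference of -0.52 (standard error 0.22, unadjusted p = 0.0392) that ran from -0.81 to -0.29 with single libraries left out. *Casp1*, which encodes caspase-1, was induced 7.28-fold and 7.64-fold in *Ncoa6*-sufficient and *Ncoa6*-KO BMDMs (0.07, unadjusted p = 0.626), and *Nek7*, which licenses NLRP3, had a difference of 0.08 (unadjusted p = 0.538).

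The substrates of caspase-1 were also followed. *Il1b* had 18.8 and 15.5 normalized counts with medium alone in *Ncoa6*-sufficient libraries and 6.95 and 3.51 in *Ncoa6*-KO libraries, which are few counts. With LPS + MSU it had 31995 and 29707 and 18367 and 18637. The *Ncoa6*-KO libraries were lower in both conditions without overlap, by -1.65 (log2, adjusted p = 0.0398, edgeR) with medium alone and by -0.74 (adjusted p = 0.00744) with LPS + MSU. The response difference of *Il1b* was therefore positive, 0.91 (standard error 0.36, unadjusted p = 0.03), although its level with LPS + MSU was the lower one in *Ncoa6*-KO BMDMs. For *Il18* it was 0.25 (standard error 0.17, unadjusted p = 0.159).

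**Figure D5:**
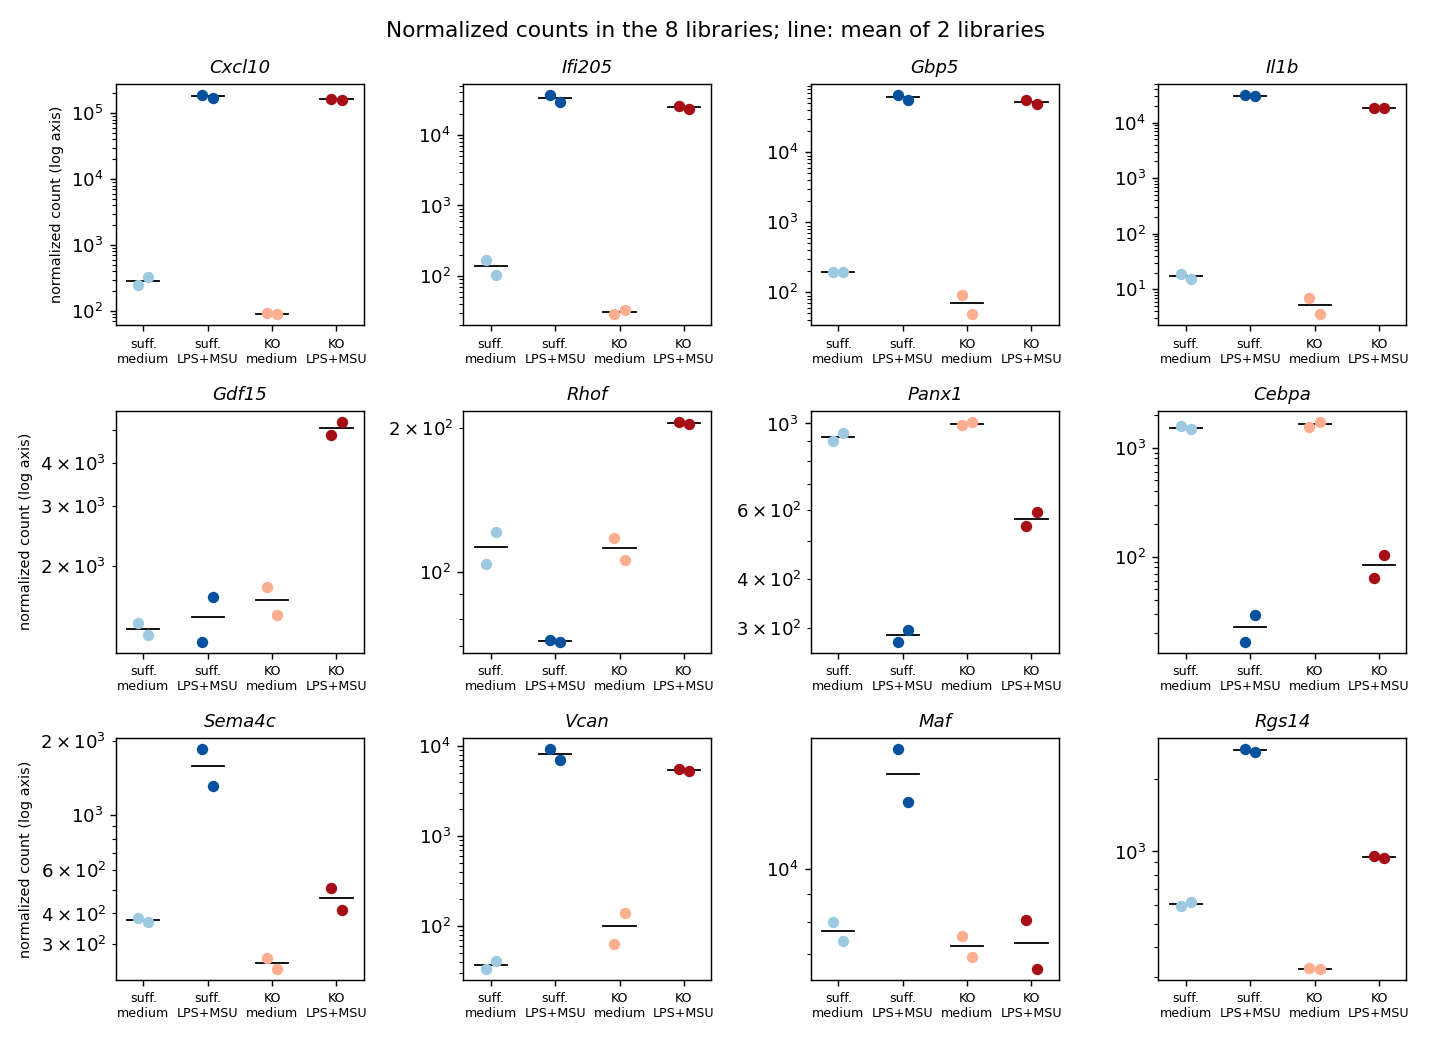
Normalized counts (log axis, a different scale in each panel) of 12 genes in the 8 libraries, with *Ncoa6*-sufficient (suff.) libraries in blue, *Ncoa6*-KO libraries in red, and black lines at the mean of 2 libraries. The top row shows induced genes with lower starting levels in *Ncoa6*-KO libraries, the middle row genes with higher levels in *Ncoa6*-KO libraries after LPS + MSU, and the bottom row genes with weaker or no induction in *Ncoa6*-KO libraries.

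The gene with the smallest p of all was *Gdf15* (chr8:70629393-70632456, reverse strand), a stress-induced cytokine of the TGF-β family. It had 1363 and 1255 normalized counts in medium alone and 1200 and 1625 with LPS + MSU in *Ncoa6*-sufficient libraries, and 1734 and 1437 and then 4852 and 5293 in *Ncoa6*-KO libraries. The 2 *Ncoa6*-KO libraries with LPS + MSU stood above the other 6 libraries. With medium alone the *Ncoa6*-KO libraries were also the higher ones without overlap, by a narrow margin (0.28, log2, adjusted p = 0.463, edgeR). *Gdf15* was induced 3.2-fold in *Ncoa6*-KO BMDMs, and its change in *Ncoa6*-sufficient BMDMs was 1.08-fold and did not pass the test. The response difference was 1.57 (standard error 0.20, unadjusted p = 9.22e-06, adjusted p = 0.163 in edgeR and 2.92e-08 in DESeq2) and ran from 1.32 to 1.75 with single libraries left out.

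*Gdf15* is a target of the stress factor ATF4, and of the 26 genes of the ATF4 and integrated stress response list tested, 5 (19.2%, 3 to 6) had a positive and 0 a negative difference at an unadjusted p under 0.05, with a median of 0.23. *Sesn2*, a stress-inducible inhibitor of mTORC1, had 776 and 686 against 788 and 654 normalized counts in medium alone and 213 and 216 against 361 and 371 with LPS + MSU. It was repressed in both genotypes, less so in *Ncoa6*-KO BMDMs, with the genotypes separated only with LPS + MSU (0.79, standard error 0.18, unadjusted p = 0.00106). *Atf5* had a difference of 0.75 (unadjusted p = 0.0025), while *Atf4* itself was at 0.21 (unadjusted p = 0.163) and the ATF4 targets *Asns* and *Ddit3* at 0.21 and 0.13, with unadjusted p-values of 0.52 and 0.4. The list's median was -0.02 without the first *Ncoa6*-KO library with LPS + MSU and between 0.16 and 0.35 without each of the others. In the unfolded protein response list 0 of 20 genes passed in either direction, with a median of 0.01, and in the heat shock list 0 of 17, with a median of -0.05. *Gdf15* and *Sesn2* were also among the 27 p53 targets tested, of which 3 (11.1%) were positive and 1 negative at an unadjusted p under 0.05. The median of the p53 targets was 0.08. With LPS + MSU, 7 of the 27 were called higher in *Ncoa6*-KO BMDMs at an adjusted p under 0.05, beside 1.96% of all genes. Which regulator these genes followed was not tested.

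NRF2 is the transcription factor that induces antioxidant genes under oxidative stress. Of 29 such genes tested, 4 (13.8%, against 4.11% of all genes) had a positive and 0 a negative response difference at an unadjusted p under 0.05. Of the 29 differences 24 were above 0, and the median was 0.21, where the median over all genes tested was also above 0, at 0.06. The median genotype difference was 0.18 with medium alone and 0.49 with LPS + MSU, where 8 of 29 passed an adjusted p under 0.05 as higher (1.96% of all genes were called higher). The count of 4 was 1 without the first *Ncoa6*-sufficient library or the second *Ncoa6*-KO library with LPS + MSU, 2 without the second *Ncoa6*-sufficient library with medium alone, 6 without the second *Ncoa6*-KO library with medium alone and 7 without the first *Ncoa6*-KO library with LPS + MSU. *Srxn1*, which reactivates oxidized peroxiredoxins, had 3961 and 3665 normalized counts in medium alone and 2175 and 3086 with LPS + MSU in *Ncoa6*-sufficient libraries. In *Ncoa6*-KO libraries it had 4360 and 4728 and 5447 and 7698. It fell in the first and rose in the second, a difference of 1.07 (standard error 0.25, unadjusted p = 0.00142, DESeq2 adjusted p = 0.0161).

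*Gclc*, the catalytic subunit of the enzyme that limits glutathione synthesis, was repressed 4.15-fold in *Ncoa6*-sufficient and 2.24-fold in *Ncoa6*-KO BMDMs (0.89, unadjusted p = 0.0115). *Txnrd1*, a thioredoxin reductase, had a difference of 0.56 (unadjusted p = 0.0341), the heme oxygenase gene *Hmox1* of 0.48 (unadjusted p = 0.133) and *Nqo1* of 0.21 (unadjusted p = 0.566). The autophagy receptor *Sqstm1*, another NRF2 target that was followed with the lysosome genes, had 16045 and 15267 against 19560 and 16781 normalized counts in medium alone and 35842 and 45912 against 80802 and 103486 with LPS + MSU. The genotypes were separated in both conditions, more widely with LPS + MSU, and the response difference was 0.96 (standard error 0.23, unadjusted p = 0.00143, DESeq2 adjusted p = 0.00762). Of the 38 lysosome genes, 2 were positive (5.26%, near the share of all genes) and 0 negative.

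Weaker repression in *Ncoa6*-KO BMDMs was the largest of the 4 patterns by number of genes in the edgeR fit with TMM. The patterns were not counted under other scalings. With DESeq2 size factors in edgeR, 523 positive and 466 negative genes had an unadjusted p under 0.05, so the ranking may depend on scaling. *Panx1* (chr9:15002128-15045478, reverse strand), which forms the channel that releases ATP from stressed cells, had 902 and 946 normalized counts in medium alone and 277 and 297 with LPS + MSU in *Ncoa6*-sufficient libraries. In *Ncoa6*-KO libraries the counts were 989 and 1010 and 546 and 595. The *Ncoa6*-KO libraries were higher in both conditions, mainly with LPS + MSU, and *Panx1* fell 3.22-fold in *Ncoa6*-sufficient and 1.75-fold in *Ncoa6*-KO BMDMs (0.88, standard error 0.14, unadjusted p = 6.64e-05, DESeq2 adjusted p = 0.031). Of 16 genes of pannexin 1 and purinergic signalling, 2 (12.5%, 1 to 4) were positive and 0 negative, the other being the ADP receptor *P2ry1* at 0.74 (unadjusted p = 0.0103).

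*Cebpa*, a transcription factor of the myeloid lineage, was among the most strongly repressed genes. It had 1572 and 1472 normalized counts in medium alone and 16.6 and 28.9 with LPS + MSU in *Ncoa6*-sufficient libraries, and 1540 and 1728 and 64 and 104 in *Ncoa6*-KO libraries. The genotypes overlapped with medium alone, while with LPS + MSU both *Ncoa6*-KO libraries lay above both *Ncoa6*-sufficient libraries (1.76, standard error 0.34, unadjusted p = 0.000316, DESeq2 adjusted p = 0.00148). *Kcnk13*, a potassium channel of microglia and macrophages, showed the same order with LPS + MSU and the opposite one with medium alone, with 1841 and 1902 against 1778 and 1824 in medium alone and 56.8 and 105 against 175 and 248 with LPS + MSU (1.44, unadjusted p = 0.000398, DESeq2 adjusted p = 0.00113). *Slc40a1*, the iron exporter ferroportin, fell 14.7-fold in *Ncoa6*-sufficient and 8.71-fold in *Ncoa6*-KO BMDMs (0.76, unadjusted p = 0.00593). The clock-related repressors *Bhlhe41* (0.97, unadjusted p = 0.0122) and *Bhlhe40* (0.64, unadjusted p = 0.0194), the lysosomal regulator *Tfeb* (0.70, unadjusted p = 0.0106) and the formin *Fmnl1* (0.90, unadjusted p = 0.00017, DESeq2 adjusted p = 0.00377) were also repressed less strongly.

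The histone genes *Hist1h1c* and *Hist1h2bc* were among the positive genes of smallest p. *Hist1h1c*, a linker histone, had 1727 and 1809 against 1955 and 1842 normalized counts in medium alone and 539 and 771 against 1353 and 1385 with LPS + MSU, separated by genotype in both conditions by order but far more widely with LPS + MSU (0.96, unadjusted p = 0.000402, DESeq2 adjusted p = 0.0161). *Hist1h2bc* fell in *Ncoa6*-sufficient BMDMs (log2 response -0.78) and did not pass the test in *Ncoa6*-KO BMDMs (-0.01), a difference of 0.77 (unadjusted p = 0.000358). *Rhof*, which drives filopodia, had 104 and 121 against 118 and 106 with medium alone, where the genotypes overlapped, and 72 and 71.6 against 206 and 204 with LPS + MSU. It fell in *Ncoa6*-sufficient and rose in *Ncoa6*-KO BMDMs (1.52, standard error 0.24, unadjusted p = 6.37e-05, DESeq2 adjusted p = 0.0456).

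The genes with a weaker induction in *Ncoa6*-KO BMDMs were spread over several lists. *Sema4c* (chr1:36548639-36558349, reverse strand), a semaphorin that signals through plexin B receptors, had 384 and 371 normalized counts in medium alone and 1852 and 1317 with LPS + MSU in *Ncoa6*-sufficient libraries. In *Ncoa6*-KO libraries it had 263 and 239 and 508 and 411. The *Ncoa6*-KO libraries were lower in both conditions without overlap, and induction was 4.19-fold in *Ncoa6*-sufficient and 1.83-fold in *Ncoa6*-KO BMDMs (-1.20, standard error 0.23, unadjusted p = 0.000318, DESeq2 adjusted p = 0.00263). *Rgs14*, a regulator of G protein signalling, shared this order at 592 and 617 against 327 and 326 and then 2664 and 2600 against 962 and 939 (-0.58, standard error 0.12, unadjusted p = 0.000607).

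*Vcan*, which encodes the matrix proteoglycan versican, started higher and ended lower in *Ncoa6*-KO BMDMs. It had 33.8 and 41.3 normalized counts against 64 and 139.6 with medium alone, and 9339 and 7070 against 5657 and 5364 with LPS + MSU. The response difference was -1.99 (standard error 0.40, unadjusted p = 0.000497). *Abcb1a*, a multidrug transporter, *Gk*, glycerol kinase, and *Dusp16*, a phosphatase of JNK and p38, were induced in both genotypes and less strongly in *Ncoa6*-KO BMDMs, with differences of -0.86 (unadjusted p = 0.000598, DESeq2 adjusted p = 0.0327), -0.79 (unadjusted p = 0.000769, DESeq2 adjusted p = 0.0104) and -0.70 (unadjusted p = 0.00116). *Pfkfb3*, which raises glycolytic flux, had a difference of -0.72 (unadjusted p = 0.00487) and the cyclin gene *Ccnd2* of -1.13 (unadjusted p = 0.00865), while 3 other genes of the 30 glycolysis and HIF-1 genes were positive (10%, 0 to 3).

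*Maf* (chr8:115682942-115707794, reverse strand), the c-MAF transcription factor of macrophage differentiation, had 8022 and 7385 normalized counts in medium alone and 16528 and 13256 with LPS + MSU in *Ncoa6*-sufficient libraries. In *Ncoa6*-KO libraries it had 7564 and 6915 and 8066 and 6581. *Maf* rose in *Ncoa6*-sufficient BMDMs (log2 response 0.95), and its response in *Ncoa6*-KO BMDMs was 0.02 and did not pass the test (-0.93, standard error 0.19, unadjusted p = 0.00052, DESeq2 adjusted p = 0.000804). The non-coding gene *Gm15655*, which overlaps exons of *Maf* on the opposite strand (whether counting used strand is not given in the sources used here), had a difference of -2.71 (unadjusted p = 0.000122, DESeq2 adjusted p = 0.000804), with 157 and 169 against 52.3 and 60.2 normalized counts with LPS + MSU. In the macrophage transcription factor list 5 genes were positive (17.9%, 1 to 5) and 3 negative of 28, the others being *Cebpb* (0.58) and *Irf5* (0.36) on the positive side beside *Cebpa*, *Bhlhe41* and *Bhlhe40*, and *Irf8* and *Runx1* (-0.29) on the negative side.

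Stronger repression in *Ncoa6*-KO BMDMs was the rarest pattern in the edgeR fit with TMM. *Ccr2*, the receptor that recruits monocytes, had 240.2 and 252 against 334 and 391 normalized counts in medium alone and 98.4 and 85.4 against 68 and 67.2 with LPS + MSU, so that the *Ncoa6*-KO libraries were the higher ones before and the lower ones after stimulation (log2 responses of -1.42 in *Ncoa6*-sufficient BMDMs and -2.42 in *Ncoa6*-KO BMDMs, standard error of their difference 0.23, unadjusted p = 0.00114). *Fgd4*, an exchange factor for CDC42, had a difference of -0.67 (unadjusted p = 0.000501, DESeq2 adjusted p = 0.0161), the phosphatase *Dusp7* of -0.64 (unadjusted p = 0.00444) and the kinase *Bmp2k* of -0.61 (unadjusted p = 0.00118). *Gemin4*, a subunit of the complex that assembles splicing ribonucleoproteins, had 151 and 279 normalized counts in medium alone and 54 and 70.2 with LPS + MSU in *Ncoa6*-sufficient libraries, and 257 and 388 and then 0 and 0 in *Ncoa6*-KO libraries. Its unadjusted p was 2.72e-05 and its DESeq2 adjusted p 2.88e-05. Against a floor of 3 counts per library it was at least 15.3-fold lower in *Ncoa6*-KO than in *Ncoa6*-sufficient BMDMs with LPS + MSU. *Gemin4* shares exons with *Glod4* on the same strand, between which the estimated counts may be split, so its value is uncertain.

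*Polm*, a DNA polymerase that fills gaps in end joining, rose in *Ncoa6*-sufficient BMDMs (log2 response 0.75), while its response in *Ncoa6*-KO BMDMs was -0.26 and did not pass the test. Its libraries held 257 and 288 against 292 and 239.7 normalized counts with medium alone, where the genotypes overlapped, and 450.3 and 465 against 223 and 222 with LPS + MSU, where they did not (-1.01, unadjusted p = 0.000271, DESeq2 adjusted p = 0.0405). The prokineticin receptor *Prokr1* (-1.62, unadjusted p = 0.000823) and the gene *D16Ertd472e* (-1.06, unadjusted p = 0.00115) were also among the negative genes of smallest p.

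Antigen presentation on MHC class I had 3 positive (13.6%) and 1 negative gene of 22, with a median of 0.22. The positive count was 9 without the first *Ncoa6*-KO library with medium alone and 6 without the second *Ncoa6*-sufficient one, and it was 0 without the first *Ncoa6*-sufficient or second *Ncoa6*-KO library with medium alone and without the second *Ncoa6*-sufficient or first *Ncoa6*-KO library with LPS + MSU. The median ran from 0.05 to 0.34. The positive ones were *H2-Q4* (0.58, unadjusted p = 0.0332), *Tapbpl*, a peptide editor (0.51, unadjusted p = 0.0223), and the immunoproteasome subunit *Psmb9* (0.49, unadjusted p = 0.0302), and the negative one was *H2-Q6* (-0.78, unadjusted p = 0.0119). The counts of *H2-Q4* and *H2-Q6* are uncertain because they belong to a family of similar genes. Of 38 proteasome subunits 2 were positive (5.26%, near the share of all genes) and 0 negative, *Psmb9* and the assembly chaperone *Psmd5* (0.70, unadjusted p = 0.00202), which fell in *Ncoa6*-sufficient BMDMs (-0.47) and did not pass the test in *Ncoa6*-KO BMDMs (0.23).

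Effectors outside the interferon pathway included enzymes and secreted proteins. Of 20 genes of prostaglandin and leukotriene synthesis and signalling 3 (15%, 0 to 3) were positive and 0 negative, namely the prostacyclin receptor *Ptgir* (0.56, unadjusted p = 0.0147), the prostaglandin E synthase *Ptges* (0.47, unadjusted p = 0.0232) and the leukotriene C synthase *Ltc4s* (0.81, unadjusted p = 0.0335), while *Ptgs2*, the inducible cyclooxygenase, was at -0.59 (unadjusted p = 0.132). The complement gene *Cfb* had 90.1 and 73.1 against 29.2 and 19.3 normalized counts with medium alone and 7265 and 7161 against 4592 and 3850 with LPS + MSU, lower in *Ncoa6*-KO libraries throughout, with a difference of 0.95 (standard error 0.25, unadjusted p = 0.00321). *Cfb* shares exons with *Gm20547* on the same strand, so its counts are uncertain. *Mmp14*, a membrane-bound matrix metalloprotease, had 624 and 466 against 177 and 138 and then 12969 and 11437 against 8048 and 6653, also lower throughout (1.05, standard error 0.23, unadjusted p = 0.000933, DESeq2 adjusted p = 0.0104). The gelatinase *Mmp9* was at 0.62 (unadjusted p = 0.00351), and the RANK receptor *Tnfrsf11a* at -0.43 (unadjusted p = 0.0216).

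Receptors and survival factors gave single differences in both directions. *Clec4e*, the Mincle receptor for dead cells and mycobacterial lipids, was at 0.59 (unadjusted p = 0.0043) and the formyl peptide receptor *Fpr2* at 0.71 (unadjusted p = 0.0332), with exons shared with *Fpr3* that make it uncertain. *Tyro3*, a receptor for dying cells, had a negative difference (unadjusted p = 0.00507) whose size is not given, because the *Ncoa6*-sufficient libraries with medium alone held 2 and 2 counts of it. In the BCL-2 family 2 of 21 (9.52%, 1 to 5) were positive and 0 negative, the death agonist *Bid* (0.40, unadjusted p = 0.00901) and *Bcl2a1d* (0.77, unadjusted p = 0.0339), which has close copies and is uncertain. The metallothionein *Mt1*, which binds zinc and copper, was at 0.27 (unadjusted p = 0.0411).

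Other functions showed few or no response differences beyond the share among all genes. Of 76 subunits of oxidative phosphorylation 0 had an unadjusted p under 0.05 in either direction, with a median of 0.08, and of 84 cytosolic ribosomal proteins also 0, with a median of 0.11. The 26 genes of cholesterol synthesis and the 16 of MHC class II presentation and costimulation had 0 as well, with medians of 0.07 and 0.32 and up to 4 and 8 positive with a single library left out. Among 45 genes of DNA replication 1 was positive and 1 negative, with a median of -0.04 and up to 9 negative with a single library left out, and among 39 mitosis genes 1 was positive, *Cdc20* (0.70, unadjusted p = 0.0102). The 22 genes of the NCOA6, MLL3 and MLL4 complexes and other coregulators had a median of 0.0028, with 1 positive, *Pagr1a*, which shares exons with *Pagr1b* and is uncertain. These medians lay close to the 0.06 over all genes, except that of MHC class II, for which the median as each library was left out ran from -0.0049 to 0.53.

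Base composition and transcript length moved with the direction of the difference. Among genes averaging 50 normalized counts or more, median GC content was 53.8% in those with a weaker repression, 50.3% with a stronger induction, 49.4% with a stronger repression and 46.5% with a weaker induction, against 49.2% over all 11219. The median transcript lengths were 3112, 3189, 5602 and 4694 bases, against 3375. Spearman's correlation of the response difference across genes was 0.20 with GC content and -0.18 with transcript length, and their part in the result was not tested. After an offset for both, chosen after seeing the data, the correlation with GC content was -0.04, and the medians of the interferon-stimulated genes and the interferon-inducible GTPases were 0.63 and 0.68. The median over the genes repressed by at least 3 was 0.20 with this offset.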

How the data were processed

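BMDM RNA was sequenced as stranded, paired-end poly(A) libraries. The authors used STAR 2.7.3a and RSEM 1.3.3 on GRCm38 (annotation release 101) to estimate a count for each gene. The deposited table holds the expected counts of 50615 genes in 8 libraries without scaling, which were rounded to whole numbers here. Genes with a count sum of at least 10 over all libraries (17625) were fitted with edgeR 4.0.16 (TMM, glmQLFit and glmQLFTest, 1 mean per group, 4 residual degrees of freedom), and p-values were adjusted by Benjamini-Hochberg over all of them. Normalized counts are counts divided by effective library size relative to its mean. The standard error is the log2 value divided by the root of its F statistic.

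The gene lists and the genes to describe were chosen with earlier results of these data known. The genes named are the 15 of smallest p in each direction among those averaging 50 normalized counts or more, up to 3 genes in each list with an unadjusted p under 0.05, the target gene and 6 inflammasome genes, with other list members given by value. Symbols came from a name table (17587 of 17625 tested genes), and positions and exon overlaps from GENCODE M21 on the same assembly, which is not the release the authors used. Exons of another gene lie on the opposite strand of 29 of the 100 named genes, and the sources used here do not say whether counting used strand. DESeq2 1.42.0, limma-voom (limma 3.58.1), other scalings and filters, the replicate number as a block, and leaving out each library were the alternatives. The edgeR code was tested on simulated data with known changes.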

Additional observations from a re-analysis of the deposited data

Results flagged for a closer look

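For *Rhof*, *Mgat4b* and *Srxn1*, and no other gene averaging 50 normalized counts or more, the responses of the genotypes passed an edgeR adjusted p under 0.05 in opposite directions, and every library pair fell in *Ncoa6*-sufficient BMDMs and rose in *Ncoa6*-KO BMDMs. They were singled out after their values were seen. The response of *Rhof* was -0.65 without and 0.87 with the knockout, a difference of 1.52. For *Mgat4b*, a glycosyltransferase of the Golgi, it was -0.43 and 0.67, a difference of 1.10, with 2015 and 2041 against 2044 and 1870 normalized counts with medium alone and 1277 and 1728 against 2833 and 3382 with LPS + MSU. For *Srxn1* it was -0.54 and 0.53, a difference of 1.07. The difference itself did not pass the adjusted limit in edgeR (adjusted p = 0.234, 0.272 and 0.437) and did in DESeq2 (adjusted p = 0.0456, 0.00106 and 0.0161).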

How the results depend on the processing

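The number of genes at an adjusted p under 0.05 for the response difference, 0 in the edgeR fit, was 43 with DESeq2, 269 without a filter on low counts, 86 with a replicate block across all groups and 444 with a replicate block within genotype, and 0 with DESeq2 size factors, library totals, filterByExpr, limma-voom and the GC and length offset. Leaving out single libraries gave 0 to 16. The 724 positive genes at an unadjusted p became 318 with DESeq2 and 1435 with the replicate block within genotype, and 382 to 923 with single libraries left out. The 321 negative genes became 631 with the replicate block within genotype and ran from 258 to 547. The replicate numbers were not taken to pair libraries: the deviations of same-numbered libraries correlated at 0.28 and 0.35 between the conditions of a genotype and at 0.04 to 0.19 otherwise, there are only 2 numbers, and the labels do not say what they share. The total of genes responding in each genotype stayed within 1.5 times under the alternatives run, but not its split, which library totals moved from 4362 up and 5375 down to 2498 and 9653 in *Ncoa6*-sufficient BMDMs. The median of the interferon-stimulated genes, 0.69, was 0.40 to 1.07 with single libraries left out, and that of the interferon-inducible GTPases, 0.72, from 0.44 to 1.20. The sign of the difference turned only for *Ncoa6* (-0.28 to 0.049), *Casp1* (-0.051 to 0.088) and *Nek7* (-0.048 to 0.11) among the 100 genes followed by name, all as single libraries were left out. Of 865 medians of gene lists under an alternative, 693 moved by less than the spread between replicates. With 2 libraries per group, leaving out 1 leaves a lone library that is assumed to vary like the others. Low counts limit *Il1b* with medium alone, *Gemin4*, *Angptl4* and *Tyro3*.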
